A study of Mus musculus with 6 samples.

Results

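The members described here are the copies of the mouse LINE retrotransposons that remain when the L1Md, Lx, L1_Mus and L1_Mur groups of L1 are set aside. In L1 these are the mammalian-wide L1M subfamilies, HAL1, L1P (23 copies) and a set of other names that includes mouse- and rodent-named ones (8063 copies). The other members are L2, CR1, RTE-X and a few smaller families. All members were taken by name from the LINE class of the deposited per-feature tables, leaving out every copy whose name begins with L1Md, Lx, L1_Mus or L1_Mur. Reads, or parts of a read, were given in at least 1 of the 6 libraries to 217906 LINE copies, of 1753368 annotated features of all classes. Of these LINE copies, 45410 were members. The members belong to 122 subfamilies, obtained by joining copies whose names differ only in the copy number, and to 7 families.

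LINEs are retrotransposons that copy themselves through an RNA intermediate and their own reverse transcriptase. L1 is the LINE lineage still active in mammals, whereas L2, CR1 and RTE-X stopped moving long ago and survive as short, diverged fragments scattered through introns and between genes, and L1M names the old, mammalian-wide L1 layers. Gtsf1 (also called Asterix) is a small zinc finger protein that works with the piRNA-guided Piwi proteins to silence transposons in the animal germline.

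The 6 libraries came from eCLIP, in which RNA held by a tagged protein is fragmented, pulled down and sequenced beside the unselected lysate (the input). P19 cells, a mouse embryonal carcinoma line, were transfected with a pEF plasmid in which the EF-1alpha promoter drives mouse Gtsf1 joined at its C-terminus to TEV-Strep, and MagStrep XT beads were used for the pull-down. Cells irradiated with ultraviolet light at 254 nm gave 2 inputs and 2 pull-downs, written XL for crosslinked, and cells without irradiation gave 1 input and 1 pull-down, written NX for non-crosslinked. All 6 libraries carry the tagged protein, so a pull-down from cells without it does not enter any comparison here. The labels do not say whether the crosslinked replicates were separate cultures, so the p-values measure the spread between these libraries, which may be technical.

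The libraries held 13168593 to 18418166 reads, so that 1 read was worth 0.0543 to 0.0759 RPM (the count scaled to a library of 1e+06 reads). Levels are given in RPM of all reads of a library, and folds and tests compare pull-downs with inputs. Reads of Gtsf1 itself, exons and unspliced transcript together, stood at 91.3 and 88.6 RPM in the XL inputs and 206 and 450 RPM in the XL pull-downs, against 70.9 RPM in the NX input and 56.0 RPM in the NX pull-down. Of 7 embryonal carcinoma markers, 5 reached 1 RPM in all 3 inputs, Nanog and Dppa5a being the exceptions, and none of 8 markers of differentiated derivatives did.

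Members took up a larger part of the pull-downs than of the inputs, with and without crosslinking. They made up 0.127% and 0.123% of the reads of the XL inputs and 0.263% and 0.250% of the XL pull-downs. The NX input gave them 0.0568% and the NX pull-down 0.150%. More copies were also touched, 20189 and 18960 in the XL pull-downs against 13379 and 13681 in the XL inputs, and 7837 against 5990 without crosslinking. Among all LINE reads the members held 31.9% and 29.6% in the XL inputs and 34.3% and 32.3% in the XL pull-downs, but 27.8% in the NX input and 26.0% in the NX pull-down, the rest falling on the L1 groups that were set aside.

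L1, CR1 and RTE-X were called higher in the XL pull-downs and L2 was not called, a difference between families that has no called test of its own. Among all 38955 features of the table in which LINE copies were summed by family, 5.1% were called higher and 2.63% lower, the call being an adjusted p under 0.05 in edgeR's quasi-likelihood test, and 3 of the 4 families abundant enough to be tested were called higher. Taken as a share of all LINE reads, which the excluded L1 groups dominate, the XL ratios were 1.21 for L1 and 1.17 for CR1 and turned below 1 for L2 (0.644) and RTE-X (0.838). The NX comparisons here and below set 1 library against 1. Their edgeR fits assume that the NX libraries vary like the crosslinked pairs, so their p-values measure no spread among NX libraries. Without crosslinking 3.71% of features were called higher and 6.43% lower.

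The L1 members, 36013 copies in 97 subfamilies, had 940 and 919 RPM in the XL inputs and 2200 and 2082 RPM in the XL pull-downs. The pull-downs stood at 2.37 and 2.24 times the mean of the inputs, a mean ratio of 2.30. The edgeR log2 ratio was 1.29 with a standard error (SE) of 0.16 and an adjusted p of 0.00548. Without crosslinking the L1 members went from 430 RPM in the input to 1287 RPM in the pull-down, a ratio of 2.99, and that comparison was also called by edgeR (log2 1.69, adjusted p = 0.0125).

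L2, the most frequent old family after L1 with 7988 copies in 4 subfamilies, differed least between inputs and pull-downs among the 4 tested families. It had 291 and 270 RPM in the XL inputs and 341 and 344 RPM in the XL pull-downs. The pull-downs lay above the inputs without overlap, but the ratio was only 1.22 and edgeR did not call it (log2 0.38, SE 0.16, adjusted p = 0.244). Without crosslinking L2 had 125 RPM in the input and 168 RPM in the pull-down (edgeR log2 0.52, adjusted p = 0.168), and 1 copy, L2a_dup11835, went from 0.141 to 31.9 RPM there.

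CR1 is an old family, mostly represented in mammals by the L3 subfamily. Its 1207 copies had 34.1 and 30.6 RPM in the XL inputs and 76.7 and 67.4 RPM in the XL pull-downs. CR1 thus rose about as much as L1, by a ratio of 2.23 (edgeR log2 1.25, SE 0.17, adjusted p = 0.00696). Its NX values were 11.4 RPM in the input and 39.1 RPM in the pull-down (edgeR log2 1.88, adjusted p = 0.0130).

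RTE-X, here the L4 subfamilies and relatives, was rare, with 167 copies. Its XL inputs stood at 5.96 and 5.43 RPM and its pull-downs at 8.91 and 9.20 RPM, a ratio of 1.59 (edgeR log2 0.76, SE 0.14, adjusted p = 0.0271). The call was lost when 1 of 3 libraries was left out: the adjusted p in edgeR was 0.0956 without XL input 1, 0.122 without XL input 2 and 0.0714 without XL pull-down 2, and DESeq2 gave 0.138. Without crosslinking RTE-X went from 1.63 to 4.40 RPM (edgeR log2 1.54, adjusted p = 0.0289). The 1 RTE-X copy with a mean of at least 1 RPM, L4_C_Mam_dup387, held 0.503% of the family's reads in the XL inputs. It held 27.0% in the XL pull-downs and 51.7% in the NX pull-down. The other 166 RTE-X copies had a ratio of 1.17 with crosslinking and 1.31 without. Dong-R4, RTE-BovB and Penelope, with 15, 12 and 8 copies, never exceeded 0.77 RPM and were not tested.

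**Figure D1:**
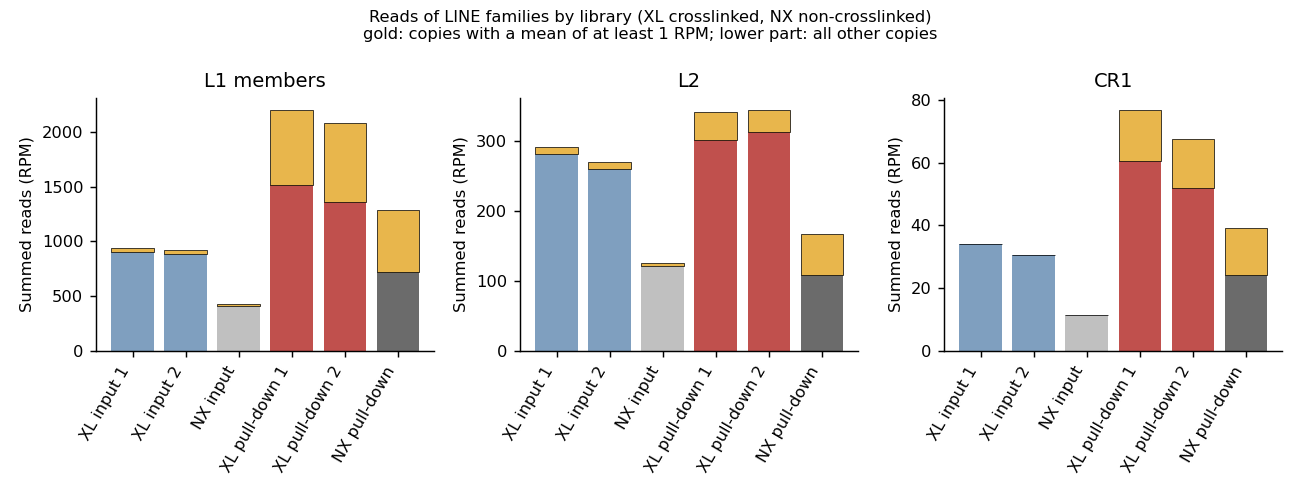
Summed reads of the L1 members, L2 and CR1 (vertical axis, RPM, starting at 0) in each of the 6 libraries, with XL for crosslinked and NX for non-crosslinked. Gold marks the copies with a mean of at least 1 RPM and the lower part all other copies; the L1 pull-downs reach 2200 and 2082 RPM against inputs of 940 and 919 RPM, while L2 moves from 291 and 270 to 341 and 344 RPM.

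These log2 ratios are relative to annotated library sizes, under which the median log2 ratio of all 39872 single features tested was -0.21 with crosslinking and -0.78 without. With trimmed mean (TMM) factors the XL median of all features was -0.00. Relative to the bulk of features, the ratios given here are therefore larger by these amounts.

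As shares of all reads the same levels can be compared by permutation, but 2 libraries against 2 cannot reach a small p. L1 made up 0.0929% ± 0.0015 of the XL inputs and 0.214% ± 0.008 of the pull-downs (SD, n = 2 each). For L2 these shares were 0.0281% ± 0.0014 and 0.0343% ± 0.0002. The two-sided exact permutation p was 0.333 for each of the 4 families, before and after Benjamini-Hochberg adjustment, the smallest value that the 6 possible splits allow.

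The relation of L1 to L2 can be read inside a library, where library size cancels. L1 members had 3.23 and 3.40 reads for each L2 read in the XL inputs and 6.44 and 6.05 in the XL pull-downs. The NX libraries gave 3.43 in the input and 7.68 in the pull-down. All 3 inputs thus sat between 3.23 and 3.43 and all 3 pull-downs between 6.05 and 7.68, and the L1 to L2 balance shifted by 0.91 on the log2 scale with crosslinking (2.64 ± 0.06 against 1.73 ± 0.05, SD, n = 2 each; two-sided exact permutation p = 0.333, the smallest possible) and by 1.16 without it.

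The limit used for single copies, a mean of 1 RPM, takes in the pull-downs, so copies past it were in part chosen for high pull-down values, and the split that follows is a description. The 114 L1 copies averaging 1 RPM or more across the 4 XL libraries held 4.01% of the L1 reads in the XL inputs, 32.8% in the XL pull-downs and 44.2% in the NX pull-down. The remaining 35899 L1 copies still had a pull-down over input ratio of 1.61 with crosslinking and 1.75 without. For L2 the 11 copies past the limit held 3.55% of the reads in the XL inputs and 10.5% in the pull-downs, with 35.6% in the NX pull-down, and the other 7977 copies had ratios of 1.13 with crosslinking and 0.892 without. Without any of these copies the L1 to L2 balance still differed between XL pull-downs and inputs, by 0.51 on the log2 scale in place of 0.91. In CR1 the 2 copies past the limit held 22.1% of the reads in the XL pull-downs. The other 1205 CR1 copies had ratios of 1.74 with crosslinking and 2.13 without.

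Summed by subfamily, 87 of the 122 subfamilies reached 1 RPM and were tested. Here 59 were called higher in the XL pull-downs and none lower by edgeR, beside 5.33% of all 39069 features of that table called higher and 2.71% called lower. Of the 87, 6 averaged under 1 RPM in the XL inputs and passed the limit only through the pull-downs, and 3 of these were among the calls, which leaves 56 of 81. At an unadjusted p under 0.05 the count was 79, all higher, beside 21.8% of all features in either direction. Pull-downs lay above inputs without overlap in 82 of the 87, a pattern shown by 10.2% of all features, and below them in none, against 57.8% of all features. The median edgeR log2 ratio of the 87 was 1.06, and 86 were above 0.

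L1 accounted for 76 of the tested subfamilies, of which 55 were called higher, with log2 ratios from 0.08 to 3.27 and a median of 1.07. The L1M groups are named in layers, from L1MA, the youngest, to L1ME, the oldest. All 9 tested L1MA subfamilies were called higher, as were 4 of 7 L1MB, 8 of 11 L1MC, 6 of 6 L1MD and 13 of 21 L1ME subfamilies. Their median log2 ratios were 1.31, 0.89, 1.16, 1.31 and 1.07 in that order, so the medians did not follow the order of the layers. The numbered L1M1 to L1M8 names had 9 of 12 called, with a median of 1.17, and HAL1, a relative of L1 that lacks part of the coding sequence, had 3 of 4 with a median of 1.43. These counts and medians include the 6 subfamilies that passed the limit only through the pull-downs. In L1ME they were L1ME3C and L1MEb, both called, and L1MEi and L1ME3E, not called. In L1M1 to L1M8 they were L1M3c, called, and L1M2c, not called.

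L1P, with 23 copies in 2 subfamilies, was not tested. The remaining group of L1 names, L1_Mm, L1_Rod, L1VL1, L1VL2, L1VL4, MusHAL1 and X9_LINE, holds 8063 copies, and several of these names refer to mouse or rodents. The word ancient is therefore not apt for every copy taken in by name. In this group 3 of 6 tested subfamilies were called higher, with a median log2 ratio of 0.76. L1_Mm, named for the mouse, was not called, with 10.9 and 11.5 RPM in the XL inputs and 11.5 and 10.8 RPM in the pull-downs (edgeR log2 0.08, SE 0.14, adjusted p = 0.785). L1_Rod, with 34.5 and 32.9 RPM against 70.2 and 61.5 RPM, was called higher (edgeR log2 1.06, adjusted p = 0.0112).

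For comparison, the excluded L1Md copies, which include the elements still able to move in the mouse, had 1165 and 1330 RPM in the XL inputs and 964 and 1168 RPM in the pull-downs (edgeR log2 -0.14, adjusted p = 0.726). Without crosslinking L1Md went from 695 to 1559 RPM (edgeR log2 1.27), and the edgeR log2 ratio was 2.24 for Lx and 1.21 for L1_Mus and L1_Mur. The Lx copies, an older rodent layer, had 962 and 986 RPM against 2987 and 2985 RPM (edgeR log2 1.71, adjusted p = 0.00197). L1_Mus and L1_Mur together had a log2 ratio of 0.97 in edgeR (adjusted p = 0.0181). With crosslinking the L1 members thus lay between these groups, and the differences between the groups were not tested.

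The tested subfamily with the largest ratio was L1ME3Cz, an old L1 subfamily with 120 copies. It had 9.35 and 9.99 RPM in the XL inputs and 85.6 and 89.3 RPM in the pull-downs (edgeR log2 3.27, SE 0.17, adjusted p = 0.000609), and it went from 5.91 to 86.3 RPM without crosslinking. All 3 pull-downs lay between 85.6 and 89.3 RPM and all 3 inputs under 10 RPM. This subfamily is largely 1 copy: L1ME3Cz_dup671 held 94.4% of its reads in the XL pull-downs and 66.0% in the inputs, and the other copies had a ratio of 1.48.

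L1MEd followed, with 10.98 and 9.97 RPM in the XL inputs and 64.2 and 71.6 RPM in the pull-downs (edgeR log2 2.79, SE 0.17, adjusted p = 0.000638). Its copy L1MEd_dup1719 held 70.1% of its pull-down reads, and the other copies still had a ratio of 3.08. L1MCa had 6.78 and 6.81 RPM against 37.8 and 38.8 RPM (edgeR log2 2.59, SE 0.16, adjusted p = 0.000635). Its copies L1MCa_dup1587, L1MCa_dup1371 and L1MCa_dup3112 had no read in any input. In the XL pull-downs they had 9.52 and 12.1, 4.51 and 5.19, and 5.22 and 3.63 RPM in that order. L1MA5, whose most-read copy held 24.0% of the pull-down reads, had 12.9 and 13.3 RPM against 67.0 and 69.2 RPM (edgeR log2 2.47, SE 0.16, adjusted p = 0.000667), and its ratio without the most-read copy was 4.06. L1M3c, a rare subfamily of 46 copies, had 0.744 and 1.09 RPM against 4.91 and 4.60 RPM (edgeR log2 2.45, SE 0.20). Since its inputs averaged 0.915 RPM, L1M3c passed the limit only through the pull-downs and is given without a p. The larger part of its pull-down level was 1 copy, L1M3c_dup185, with 3.10 and 3.22 RPM there and no read in any input. In each of these 5 subfamilies the replicate values of a group lay close together relative to the gap between groups.

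The subfamilies with the most reads showed smaller ratios. L2a had 113 and 105 RPM in the XL inputs and 137 and 133 RPM in the pull-downs and was not called (edgeR log2 0.40, SE 0.16, adjusted p = 0.203). L2 without a letter had 91.5 and 86.6 RPM against 98.0 and 99.0 RPM (edgeR log2 0.24, adjusted p = 0.433). L2b and L2c also missed the threshold, with edgeR log2 ratios of 0.66 (adjusted p = 0.0546) and 0.32 (adjusted p = 0.310). None of the 4 L2 subfamilies was therefore called with crosslinking, although all 4 ratios were above 0. Without crosslinking L2b was called higher (edgeR log2 1.18, adjusted p = 0.0365), L2c had a log2 ratio of -0.26 (edgeR adjusted p = 0.464), and the NX ratio of L2a was 0.973 without L2a_dup11835.

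Among the abundant L1 subfamilies, L1M4 had 57.7 and 58.1 RPM in the XL inputs and 193 and 153 RPM in the pull-downs (edgeR log2 1.67, SE 0.18, adjusted p = 0.00298). L1M5 had 57.2 and 53.4 RPM against 135 and 133 RPM (edgeR log2 1.37, SE 0.16, adjusted p = 0.0037). L1M2 had 46.4 and 46.5 RPM against 120 and 114 RPM (edgeR log2 1.43, SE 0.16, adjusted p = 0.00306). Each of the 3 was called higher, and single copies again contributed: L1M4_dup1129 held 38.2% of the L1M4 pull-down reads and L1M5_dup10268 held 34.7% of those of L1M5. The ratios without these copies were 1.94 for L1M4 and 1.59 for L1M5.

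In CR1, 3 of 4 tested subfamilies were called higher. L3 had 26.1 and 22.7 RPM in the XL inputs and 59.2 and 51.8 RPM in the pull-downs (edgeR log2 1.28, SE 0.16, adjusted p = 0.00601), and Plat_L3 had 1.72 and 1.57 RPM against 6.08 and 6.17 RPM (edgeR log2 1.99, SE 0.16, adjusted p = 0.000988). In RTE-X only L4_C_Mam of 3 tested was called, with 1.60 and 1.57 RPM against 4.37 and 3.98 RPM (edgeR log2 1.48, SE 0.15, adjusted p = 0.00262). The larger part of its XL pull-down level was 1 copy. This copy, L4_C_Mam_dup387, had 0.0573 and 0 RPM in the XL inputs and 2.48 and 2.40 RPM in the pull-downs. L4_B_Mam, with 1.20 and 1.09 RPM against 1.15 and 1.03 RPM, was not called and was the 1 tested member subfamily with an edgeR log2 ratio under 0 (-0.01).

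The same subfamilies were largely higher in the pull-down without crosslinking. There edgeR called 49 of 87 higher and none lower, beside 3.95% of all features called higher and 7.12% lower, and at an unadjusted p under 0.05 the count was 64, all higher, beside 34.1% of all features in either direction. With 1 library a group, this fit assumes that the NX libraries vary like the crosslinked pairs. Of the 87, 45 were called in both comparisons, 14 with crosslinking alone, 4 without crosslinking alone and 24 in neither. Across the 87 subfamilies the log2 ratios of the 2 comparisons, which share no library, had a Pearson r of 0.865, given as a description since subfamilies share libraries and may share reads.

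The difference between the 2 ratios was tested as an interaction over all 6 libraries. No member subfamily was called higher or lower by edgeR, as was no feature of the whole table, and limma called none either. At an unadjusted p under 0.05 there were 15 member subfamilies, 1 with the larger ratio after crosslinking and 14 with the larger ratio without it, and the lowest adjusted p was 0.311, shared by 6 of them. Such a p was found for 14.1% of all features, and the median interaction of all features was 0.57 on the log2 scale, against -0.29 for the 87 members. L4_C_Mam, 1 of the 6, had an NX input of 1 read, and without XL input 1 it was called (edgeR log2 -4.03, adjusted p = 0.0365). For the families the interaction log2 was -0.39 for L1, -0.14 for L2, -0.64 for CR1 and -0.77 for RTE-X, none of them called by edgeR, with adjusted p of 0.509, 0.806, 0.393 and 0.348.

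On the log2(RPM + 1) scale the median subfamily ratio was 0.80 with crosslinking and 0.96 without, and 52 of 87 subfamilies had the larger value without, beside medians of -0.20 and -0.41 over all single features tested. The plot of both ratios shows the L1 subfamilies along the diagonal, with L1MB2 as the point farthest above it. L1MB2 had 9.49 and 8.77 RPM in the XL inputs, 29.1 and 44.1 RPM in the XL pull-downs, 4.17 RPM in the NX input and 7.23 RPM in the NX pull-down. It was looked at because of its place in the plot, so its interaction of 1.20 on the log2 scale is a description.

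**Figure D2:**
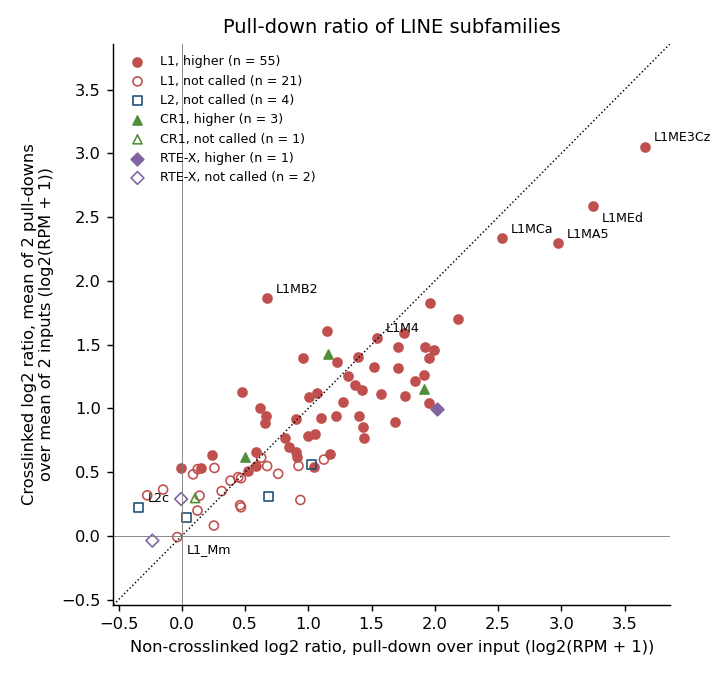
Each point is 1 of the 87 tested subfamilies, with the NX log2 ratio of pull-down over input on the horizontal axis and the XL ratio on the vertical axis, both on the log2(RPM + 1) scale. Filled points were called higher by edgeR with crosslinking; L1ME3Cz lies farthest out on both axes, the 4 L2 subfamilies (open squares) stay below 0.7 on the vertical axis, and the dotted line marks equal ratios.

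Single copies were looked at where they averaged 1 RPM or more across the 4 XL libraries, which 128 of the 45410 did: 114 of L1, 11 of L2, 2 of CR1 and 1 of RTE-X. In edgeR 115 were called higher and 1 lower, beside 6.41% and 3.47% of all 39872 single features. Without crosslinking 105 were called higher and none lower, beside 5.01% and 7.94%. These counts support nothing by themselves, because 111 of the 128 averaged under 1 RPM in the XL inputs and so passed the limit only through the pull-downs, and no p is given for such copies. Pull-downs lay above inputs without overlap in 117 copies and below them in 3, against 10.8% and 57.7% of single features. In 69 copies both XL inputs were at 0 and in 63 all 3 inputs were. Of the 17 copies with an input mean of at least 1 RPM, 5 were called higher, 1 lower and 11 not called. Just inside the limit lay L2a_dup11086 and L1MB1_dup1052, each with a mean of 1.00 RPM, and just outside lay L2a_dup4692 with 0.994 RPM and L1MB5_dup3486 with 0.991 RPM.

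The copies are not independent measurements. The deposited counts are often fractional, and only 19 of the 128 copies had whole counts in all 6 libraries (within 1e-06 of a whole number). L1VL2_dup866 and L1VL2_dup869 had identical counts in every library.

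The most-read copy was L1ME3Cz_dup671. It had 6.26 and 6.52 RPM in the XL inputs, 80.3 and 84.9 RPM in the XL pull-downs, 4.45 RPM in the NX input and 84.2 RPM in the NX pull-down. The 3 pull-downs were within a few RPM of one another and the 3 inputs were all under 7 RPM. Its edgeR log2 ratio was 3.78 (SE 0.19, adjusted p = 0.000355) with crosslinking and 4.34 (adjusted p = 0.00318) without.

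L1MEd_dup1719 behaved in the same way, at 4.42 and 3.31 RPM in the XL inputs, 43.0 and 52.2 RPM in the XL pull-downs, 2.26 RPM in the NX input and 47.5 RPM in the NX pull-down (edgeR log2 3.72, SE 0.23, adjusted p = 0.000371). L1M5_dup10268 had 0.611 and 0.380 RPM, 43.1 and 50.0 RPM, 0.424 RPM and 45.5 RPM in the same order (edgeR log2 6.60, SE 0.28). For both copies the NX pull-down fell between the 2 XL ones.

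L1M4_dup1129 stood apart from these. It had 2.41 and 3.15 RPM in the XL inputs and 80.3 and 51.7 RPM in the XL pull-downs (edgeR log2 4.65, SE 0.30, adjusted p = 0.000376), but 16.9 RPM in the NX pull-down and 0.353 RPM in the NX input. The NX pull-down was thus lower than either XL one, and so was its input, and the interaction in edgeR was -1.002 on the log2 scale (adjusted p = 0.517).

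Several of the copies with the largest ratios had no read in any input. L1MCa_dup1587 had 9.52 and 12.1 RPM in the XL pull-downs and 10.1 RPM in the NX one, so its mean XL pull-down level was at least 62.9-fold higher than the XL inputs, counted against 3 reads in an input library, 0.172 RPM. L1M2_dup11382 had 10.1, 10.2 and 11.5 RPM in the same 3 pull-downs, which with crosslinking is at least 59.0-fold higher than the inputs. L3_dup579, a CR1 copy, had 8.84, 8.75 and 8.88 RPM, which with crosslinking is at least 51.2-fold higher. In all 3 copies the pull-down with no crosslinking reached the level of the XL pull-downs.

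This pattern was frequent. It was noticed after the values were seen and is described without a test: at least 10 reads in each of the 3 pull-downs and at most 3 reads in each of the 3 inputs. Of the 289 members with at least 10 reads in both XL pull-downs, 179 (61.9%) showed it, 164 of them L1, 9 L2, 5 CR1 and 1 RTE-X. Together they had 1.81 and 2.13 RPM in the XL inputs, 1.06 RPM in the NX input, 454 and 481 RPM in the XL pull-downs and 448 RPM in the NX pull-down. The 3 pull-downs gave these copies nearly the same summed level, the second XL one 1.06 times the first and the NX one 0.960 times the XL mean.

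Among the 128 tested copies, 86 showed this pattern, with mean levels in the XL pull-downs from 1.98 to 12.4 RPM and a median of 3.11 RPM. The ratio of the NX pull-down to the XL mean ran from 0.603 to 1.45 over these copies, with a median of 0.952. Other repeat classes held the pattern too. It covered 61.5% of Lx copies, 56.8% of L1_Mus and L1_Mur copies, 61.4% of DNA transposon copies and 56.0% of SINE copies chosen by the same 10 reads, 24.5% of LTR copies and 18.2% of L1Md copies, but 1.51% of exons and 1.07% of introns.

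A smaller set was seen in the XL pull-downs alone. These 15 copies, 14 of L1 and 1 of CR1, were 5.19% of the 289, beside 5.99% of SINE, 9.09% of DNA transposon, 4.47% of Lx and 2.89% of LTR copies and 0.365% of exons chosen by the same 10 reads. They had at least 10 reads in both XL pull-downs, at most 3 in each input, and a NX pull-down level of at most 25% of the lower XL one. L1MB2_dup1194 led them, with 10.2 and 25.6 RPM in the XL pull-downs, 0.304 RPM in the NX pull-down and 0 in all 3 inputs, which with crosslinking is at least 104-fold higher by the mean and at least 59.6-fold by the first pull-down alone. L1MA7_dup2743 had 8.14 and 16.9 RPM in the XL pull-downs, 0.380 RPM in the NX pull-down, and 0 and 0.0271 RPM in the XL inputs. The second pull-down stood at 2.50 and 2.07 times the first in these copies, so the replicates lay further apart than in the copies above.

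Summed over the 15 copies, the XL pull-downs held 42.1 and 93.1 RPM, a factor of 2.21 between them, and the NX pull-down held 2.291 RPM. The tRNA class, which includes 50 of its 302 well-read features in the same pattern (16.6%), had 3375 and 9033 RPM in the XL pull-downs, a factor of 2.68, and 915 RPM in the NX pull-down. Any part of tRNA reads in the values of these 15 copies was not tested. These copies were chosen for their low NX pull-down, so no interaction test is given for them. Among the subfamilies, L1MB2 holds L1MB2_dup1194, which took 49.0% of its XL pull-down reads, and without this copy the ratios of L1MB2 were 2.05 with crosslinking and 1.66 without.

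**Figure D3:**
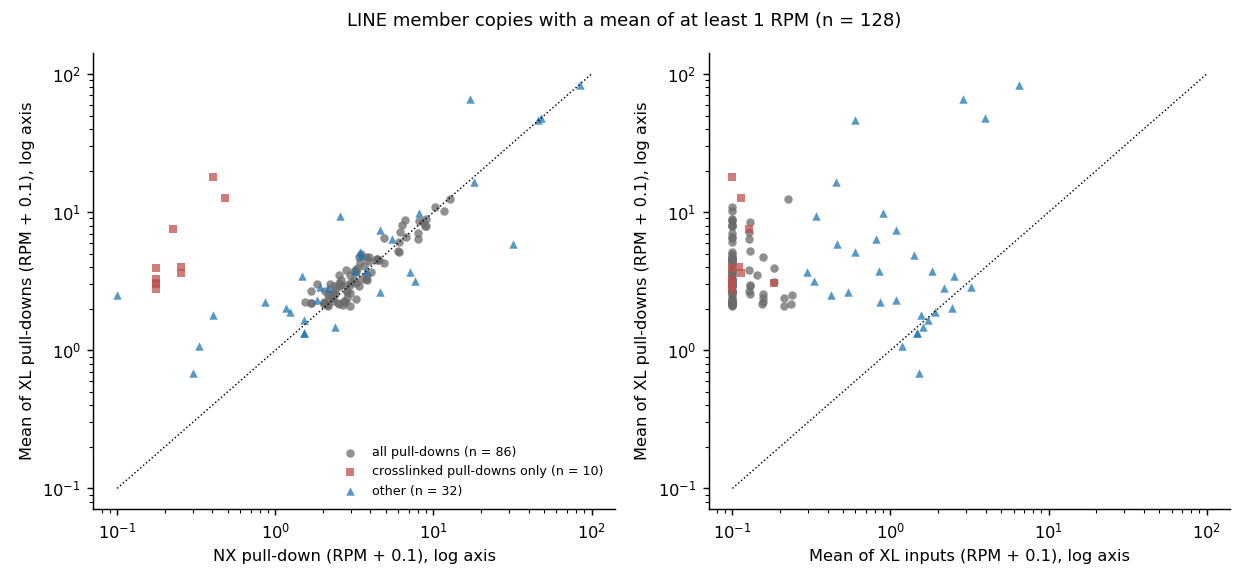
The 128 copies with a mean of at least 1 RPM, with the mean of the XL pull-downs on the vertical axis against the NX pull-down (left) and against the mean of the XL inputs (right), all in RPM + 0.1 on log axes, and dotted lines for equal values. The 86 copies with reads in all 3 pull-downs and at most 3 reads in each input (grey) lie along the left diagonal, the 10 copies seen in the XL pull-downs alone (red) lie far to its left, and both sets lie at the left edge of the right panel.

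L2 copies were few and mixed. Of the 11 tested, 7 were called higher, 1 lower and 3 not called, beside 6.41% and 3.47% of all single features, and nothing is read from these counts since copies could pass the limit through the pull-downs. L2a_dup11835 had 0.229 and 0.489 RPM in the XL inputs, 8.69 and 2.97 RPM in the XL pull-downs and 31.9 RPM in the NX pull-down, the highest of the 6 (edgeR log2 4.07, SE 0.70), and was picked out for its values. L2c_dup11333, the L2 copy with the most input reads among the 11 and also picked for its values, had 3.21 and 3.09 RPM against 2.67 and 2.91 RPM and was not called (edgeR log2 -0.09, SE 0.15, adjusted p = 0.827).

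The only tested copy called lower was L2a_dup11086. It had 1.65 and 1.20 RPM in the XL inputs, 0.584 and 0.574 RPM in the XL pull-downs, 0.754 RPM in the NX input and 0.203 RPM in the NX pull-down. Both pull-downs lay below both inputs, and the pull-down without crosslinking lay below its input as well (edgeR log2 -1.23, SE 0.27). Its pull-downs averaged under 1 RPM, so it passed the limit only through the inputs, and no p is given. The call was lost with TMM factors, in DESeq2, with no limit on low values, and without XL input 1, XL pull-down 1 or XL pull-down 2, with log2 ratios from -1.26 to -0.999 in these fits.

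**Figure D4:**
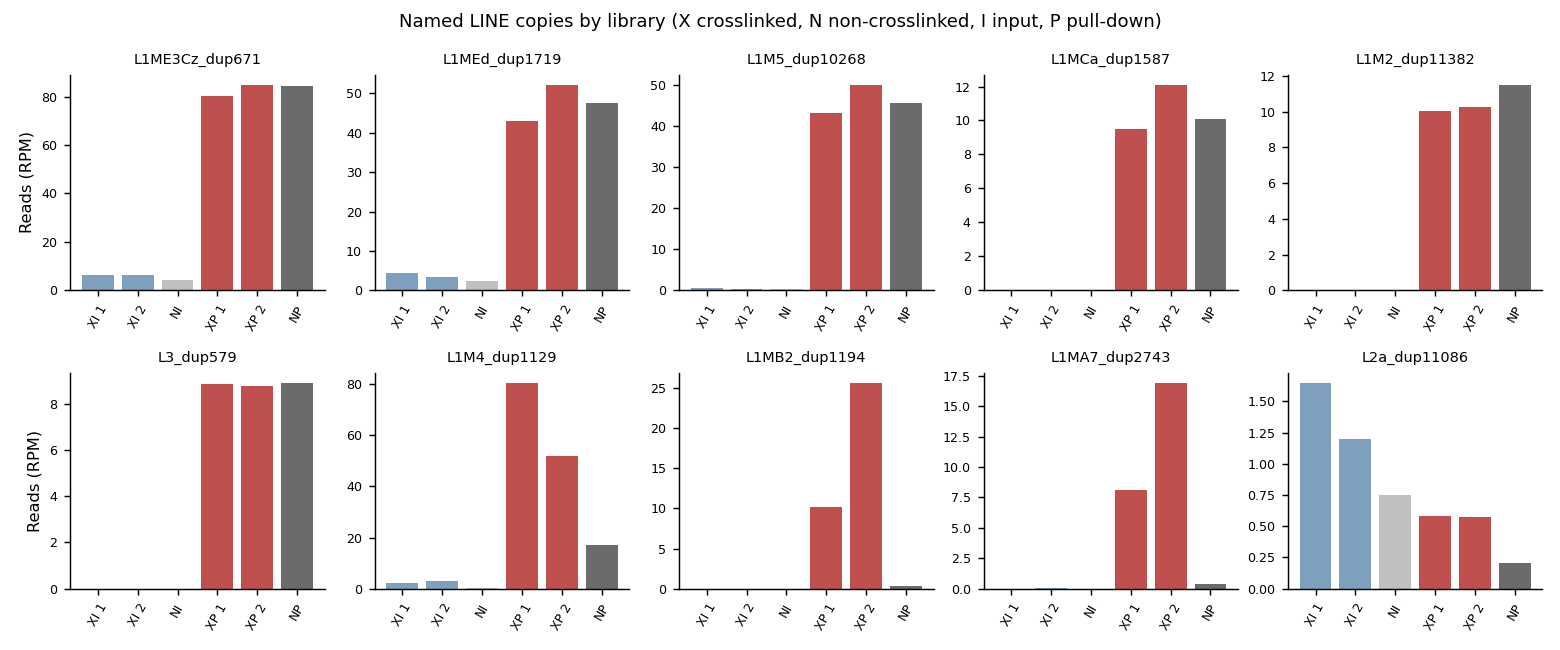
Reads (vertical axis, RPM, starting at 0, with a scale of its own in each panel) of 10 named copies in the 6 libraries, with XI and XP for XL input and pull-down and NI and NP for the NX ones. In the upper row and in L3_dup579 the NX pull-down reaches the XL ones, in L1MB2_dup1194 and L1MA7_dup2743 it stays at 0.304 and 0.380 RPM, and L2a_dup11086 is lower in the pull-downs.

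Across the 128 copies the levels in the 2 XL pull-downs had a Pearson r of 0.893, the first XL pull-down and the NX one 0.789, the second and the NX one 0.619, and XL input 1 and pull-down 1 only 0.280. The 2 XL inputs had an r of 0.984. These are descriptions over copies that were chosen for their level and that share libraries and may share reads.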

How the data were processed

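Per-feature tables of the 6 libraries were used as deposited. Per the submitters' processing notes, bcl2fastq 2.19, STAR 2.5.2b, bedtools 2.29.0 and the mouse build mm10 were used; how reads matching several places were divided, strand and duplicate removal are not given in the sources used here. The authors deposited estimated counts, often fractional, and RPM, scaled to 1e+06 reads of the library, including 6.99% to 14.4% on no annotated feature. The authors' deposited ratio per feature has no stated formula.

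Estimated counts were rounded and tested with edgeR 4.0.16 (quasi-likelihood, R 4.3.3) at single-copy, subfamily and family level, each fitted on the whole table of features averaging 1 RPM or more across the 4 crosslinked libraries, with annotated reads as library sizes and Benjamini-Hochberg adjustment at 0.05. limma 3.58.1, DESeq2 1.42.0, TMM factors, other limits of 0.5 and 2 RPM or none, pseudocounts of 0.5 and 0.1 in place of 1 RPM, a replicate block and leaving out libraries were alternatives. The fits were tested on simulated data. Intervals and floors cover counting error only. Named are the 5 copies and subfamilies with the largest called ratio in each direction without overlap of the groups, and the 5 with most reads, besides all families and the copies nearest to the limit. Other names, among them L1_Mm, L1_Rod, Plat_L3, L4_C_Mam and L4_B_Mam, fall outside this rule and were picked with their values known. Members and lists were chosen with earlier results of these data known. No LINE sequences or coordinates were used here.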

Additional observations from a re-analysis of the deposited data

How the results depend on the processing

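The L1 and CR1 calls and the absence of an L2 call held under every alternative run. The limit on low values decided the single-copy counts. At 0.5 RPM 212 copies of 321 were called higher and 5 lower, beside 4184 and 1530 of all 77398 features. At 2 RPM 46 of 50 were called higher and 0 lower, beside 1420 and 865 of all 18899 features. With no limit 0 of 33961 were called in either direction, where edgeR adjusts over 942601 features. Copies could pass the limits of 0.5 and 2 RPM through the pull-downs, so nothing is read from these counts. With no limit 0 of 122 subfamilies were called higher. The 1 copy called lower became 0 with TMM factors and 0 in DESeq2, and leaving out single libraries gave 0 to 1. Leaving out libraries gave 43 to 57 subfamilies called higher and, for the interaction, 0 to 1 called lower. RTE-X ran from 0.71 to 0.82 on the log2 scale without single libraries and was 0.97 in DESeq2, where it lost its call. The median log2 ratio of tested copies was 2.73 with a pseudocount of 0.5 and 4.72 with 0.1, and that of subfamilies 0.95 with 0.1, as a smaller pseudocount shrinks low values less. Family ratios moved with the denominator: over annotated reads they were 2.45 for L1, 1.30 for L2 and 1.70 for RTE-X, and over all LINE reads 1.21 for L1, 1.17 for CR1, and below 1 for L2 (0.644) and RTE-X (0.838). Without single libraries the L2 ratio ran from 1.18 to 1.27 and that of RTE-X from 1.52 to 1.67. The L1 to L2 shift was 0.51 without copies of at least 1 RPM, an alternative chosen after seeing the data. Of 289 alternatives for 20 named copies and subfamilies, 266 stayed on the same side of the threshold and 23 lost the call. Where not stated, the cause was not tested. Depth limits single copies, since 1 read was worth up to 0.0759 RPM.

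The labels number the crosslinked inputs and pull-downs 1 and 2. Deviations of same-numbered libraries correlated at 0.11 across features, with only 2 pairs, so the numbers were not taken as pairs. With the replicate number as a block, 116 copies were called higher and 1 lower, beside 2532 and 1657 of all 39872 single features. In the same setting 54 subfamilies were called higher, beside 1952 of all 39069 features of the subfamily table.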

Other observations

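The authors' deposited table of ratios lists 209 of the members among 216085 features. The median of the authors' deposited ratio was 2.11 over these members and 1.37 over all listed features, and 79.4% of the members and 74.6% of all features lay above 1. By family, the authors' deposited table gave a median of 2.35 for 157 L1 copies, 1.62 for 48 L2 copies and 1.66 for 4 CR1 copies. Of the 128 copies of at least 1 RPM, 29 were in the authors' deposited table, each with reads in all 6 libraries, and 7 of the 99 not listed there also had reads in all 6. The highest member in the authors' deposited table was L1ME1_dup2824, with a ratio of 609 and rank 18 among all features. The crosslinked pull-downs held it at 3.78 and 11.2 RPM, each input at 0.0353 RPM or less and the non-crosslinked pull-down at 0.127 RPM, which places it among the 15 copies seen in the crosslinked pull-downs alone.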
